A study of Homo sapiens with 16 samples.

Results

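The 8 genes described here supply and guard DNA replication. They are RRM1, RRM2 and RRM2B, which encode the subunits of ribonucleotide reductase, TYMS and SAMHD1, which act on the nucleotides it provides, and WEE1, PKMYT1 and CHEK1, which encode kinases of the replication checkpoint. They were chosen by name, because the supply of nucleotides through RRM2 and the kinase WEE1 have been linked to loss of SETD2. The choice used no measured value, though earlier results of these data were known when it was made. All 8 were found among the 58884 genes of a table of transcript levels, and all 8 were among the 16300 genes with a mean of at least 0.5 TPM that were tested. TPM is the level of a gene per transcript length, as a share of all transcripts in a library. The gene RRM2 is unrelated to the second RNA-recognition motif of the protein hnRNP L, which carries the same abbreviation.

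The levels come from poly(A)-enriched, ribosome-depleted RNA of 293T cells, a human embryonic kidney line that carries the SV40 large T antigen. The labels give these cells as WT, for wild type. The cells were transfected with a scramble siRNA, with an siRNA pool against SETD2 or with an siRNA pool against hnRNP L, and were compared 72 h later, with 2 libraries for each siRNA and no other treatment. The study describes its replicates as independent, but both libraries of a siRNA came from the same line and the same pool, so the p-values measure the spread between these cultures. The libraries of the SETD2 siRNA are numbered 2 and 3 in the labels, and those of the other siRNAs 1 and 2.

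Ribonucleotide reductase turns ribonucleotides into the deoxyribonucleotides (dNTPs) from which DNA is made. Its large subunit, RRM1, pairs with the small subunit RRM2 in S phase or with RRM2B, a small subunit induced by DNA damage and present outside S phase. When forks stall, the kinase ATR activates CHK1, the product of CHEK1, and WEE1 and MYT1, the product of PKMYT1, hold back the cyclin-dependent kinases by phosphorylation. SETD2 places the trimethyl mark on lysine 36 of histone H3, and cells without this mark have been described as short of RRM2 and sensitive to WEE1 inhibitors.

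Transcription of many S-phase genes is controlled through CCAAT boxes, which bind the factor NF-Y, and through E2F sites. RefSeq promoter sequences (GRCh38.p14) were matched for 5 of the 8 genes, RRM1, RRM2, SAMHD1, TYMS and CHEK1. A window is the 250 bases before 1 start site. RRM2 had 2 windows, CHEK1 3, and RRM1, SAMHD1 and TYMS 1 each, so a share of windows is not a share of genes. The letters CCAAT, read on both strands in the 250 bases before a start site, were found for 4 of these 5 genes, and in 32.0% of all 35116 windows. They were absent for TYMS, whose window held an E2F-type match. The E2F-type search used the 6 forms TTTCGCGC, TTTGGCGC, TTTCCCGC, TTTGGCGG, TTTCCCGG and TTTCGCGG on both strands, and 4.38% of all windows held one. The letters TTTGAA or TTCGAA of the cell cycle homology region were found for RRM1 only among the 5 genes, and in 14.3% of all windows. Capitals mark the matched letters in the stretches below. RRM2 and CHEK1 are shown for the 2 largest log2 fold changes of these genes after hnRNP L depletion. Neither passed the limma test over all genes (adjusted p = 0.0913 and 0.116). RRM1 and TYMS are shown as genes without such a change. SAMHD1, not shown, also held CCAAT, and its log2 fold change there was -0.12.
RRM2, chr2:10122661-10122690, plus strand: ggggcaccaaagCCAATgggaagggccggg
CHEK1, chr11:125626112-125626141, plus strand: ctagcgcaggggATTGGagagactcctgcg
RRM1, chr11:4094645-4094674, plus strand: gcatgtccatatCCAATggggcccatggga
TYMS, chr18:657603-657632, plus strand: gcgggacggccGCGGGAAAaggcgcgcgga
A match describes the letters of the window and says nothing of the binding of a factor.

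The siRNA targets were lower in the libraries labelled for them. SETD2 was at 13.38 and 11.7 TPM in the scramble libraries and at 4.24 and 4.91 TPM after SETD2 siRNA, or 36.5% of scramble. HNRNPL was at 341.04 and 457.16 TPM in the scramble libraries and at 25.04 and 28.81 TPM after hnRNP L siRNA, or 6.75% of scramble. All 8 markers of 293T cells were above 1 TPM in every library, and 6 of 8 markers of other cell types were below 1 TPM in every library, the highest value among the 8 being 5.17 TPM for COL1A1. The depth behind a single TPM value is unknown from the table, and the spread between libraries is the only error available.

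**Figure D1:**
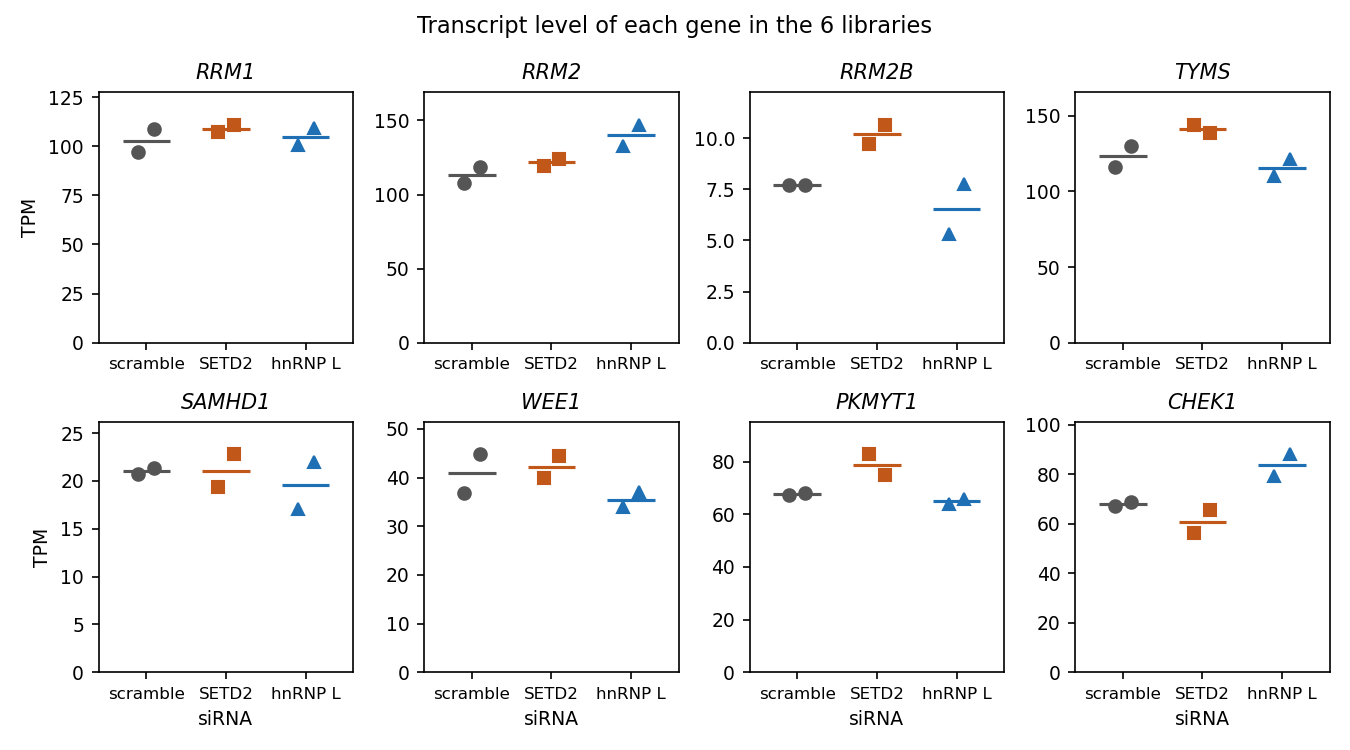
Transcript level in TPM (vertical axis, from 0, with its own scale for each gene) of the 8 genes in the 6 libraries, by siRNA. Each point is 1 library and each bar the mean of 2 libraries. RRM2 reached 132.94 and 147.09 TPM and CHEK1 79.18 and 88 TPM after hnRNP L siRNA, above the other 4 libraries, and RRM2B reached 9.72 and 10.66 TPM after SETD2 siRNA.

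The 8 genes spanned more than 1 order of magnitude of TPM, and their order was nearly the same after every siRNA. In scramble cells TYMS was highest at 123 ± 9.66 TPM (SD, n = 2), followed by RRM2 at 113 ± 7.61 and RRM1 at 103 ± 8.05, and neighbours among these overlapped in range. CHEK1 (67.8 ± 1.17) and PKMYT1 (67.8 ± 0.460) also overlapped. WEE1 (40.8 ± 5.56), SAMHD1 (21.0 ± 0.502) and RRM2B (7.69 ± 0.00) each lay apart from the next gene. After SETD2 depletion PKMYT1 stood above CHEK1, and after hnRNP L depletion RRM2 stood above TYMS and CHEK1 above PKMYT1, with no overlap between neighbours in either group. RRM2 was at the 93.8th percentile of the tested genes by mean TPM and RRM2B at the 46.1st. Across the 6 libraries the highest value of RRM1 was 1.14 times the lowest, the narrowest range of the 8, and that of RRM2B 2.01 times the lowest, the widest.

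Of the ribonucleotide reductase subunits, RRM1 was close to level and RRM2 and RRM2B differed between siRNAs in different ways. RRM1 (chromosome 11, 4094707 to 4138932, plus strand, hg38) was at 97.21 and 108.6 TPM in scramble, 107.02 and 110.96 after SETD2 siRNA and 100.55 and 109.18 after hnRNP L siRNA. These ranges overlapped in every comparison, and its log2 fold changes were 0.08 and 0.03 against scramble (SE 0.101 each, limma adjusted p = 0.752 and 0.886). RRM2 (chromosome 2, 10120698 to 10211725, plus strand) was at 108.03 and 118.79 TPM in scramble, 119.05 and 124.15 after SETD2 siRNA and 132.94 and 147.09 after hnRNP L siRNA. Both SETD2 siRNA libraries lay above both scramble libraries, though only just, and both hnRNP L siRNA libraries lay above all others. The log2 fold change of RRM2 was 0.10 after SETD2 depletion (95% confidence interval -0.13 to 0.33, adjusted p = 0.695). The lower limit of this interval reached -0.25 without SETD2 siRNA library 3, and the fold change itself was 0.033 without scramble library 1 and 0.17 without scramble library 2. With hnRNP L depletion it was 0.30 (0.07 to 0.53, unadjusted p = 0.0160), which did not pass the limma test over all genes (adjusted p = 0.0913). With the libraries rescaled by the median ratio of their genes it was 0.40 (adjusted p = 0.0214), still under the 1.5-fold cut-off. The processed RRM2 copies RRM2P2, RRM2P3 and RRM2P4, which could share reads with it, were at no more than 0.50 TPM.

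RRM2B (chromosome 8, 102204502 to 102238961, minus strand), the subunit that replaces RRM2 outside S phase, was at 7.69 TPM in both scramble libraries. It was at 9.72 and 10.66 TPM after SETD2 siRNA and at 5.3 and 7.78 TPM after hnRNP L siRNA. The SETD2 siRNA libraries were the highest, and the hnRNP L siRNA libraries lay on both sides of scramble. The log2 fold change was 0.38 (SE 0.171, interval -0.0059 to 0.77, adjusted p = 0.386) after SETD2 depletion and -0.24 (-0.63 to 0.15, adjusted p = 0.394) after hnRNP L depletion. Between the depletions it was -0.62 (-1.01 to -0.24, unadjusted p = 0.00561), and the adjusted p of 0.0513 missed the threshold. It passed among protein-coding and lncRNA genes alone (adjusted p = 0.0199) and with a pseudocount of 0.1 (log2 fold change -0.66, adjusted p = 0.0478). Without hnRNP L siRNA library 1 the difference between the depletions was -0.37 (adjusted p = 0.295). At these low levels the pseudocount of 0.5 TPM shrinks the fold change slightly.

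TYMS and SAMHD1 act on the dNTP pool from opposite sides, TYMS by making thymidylate and SAMHD1 by degrading dNTPs. TYMS (chromosome 18, 657653 to 673578, plus strand) was at 116.28 and 129.94 TPM in scramble, 144.07 and 138.73 after SETD2 siRNA and 109.91 and 121.16 after hnRNP L siRNA. The SETD2 siRNA libraries stood above the other 4, and scramble and hnRNP L siRNA overlapped. Its log2 fold change was 0.20 after SETD2 depletion (SE 0.103, adjusted p = 0.433), -0.09 after hnRNP L depletion (adjusted p = 0.607) and -0.29 between the depletions (unadjusted p = 0.0201, adjusted p = 0.103). TYMS overlaps 2 genes on the other strand, and the sources used here do not say whether reads were counted by strand. Shared bases are counted here and below over whole gene spans, introns included. ENOSF1 shares 3261 bases with TYMS. It was at 12.78 and 12.65 TPM in scramble, 13.22 and 10.03 after SETD2 siRNA and 7.18 and 6.78 after hnRNP L siRNA. ENOSF1 fell by 0.82 on the log2 scale after hnRNP L depletion (adjusted p = 0.0120), while the interval of TYMS held 0. TYMSOS, which shares 698 bases, was at 4.97 and 5.44 TPM after SETD2 siRNA and at 2.24 and 2.79 TPM after hnRNP L siRNA, a difference of -0.92 (adjusted p = 0.0113). Both calls were lost when any 1 library of the groups compared was left out (adjusted p of 0.0564 to 0.0951 for ENOSF1 and 0.0527 to 0.103 for TYMSOS), and both genes lay far below TYMS in TPM.

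SAMHD1 (chromosome 20, 36890229 to 36951893, minus strand) was at 20.69 and 21.4 TPM in scramble, 19.39 and 22.79 after SETD2 siRNA and 17.06 and 22.01 after hnRNP L siRNA. Its ranges overlapped in all 3 comparisons. The log2 fold change was -0.0013 after SETD2 depletion (-0.32 to 0.32, adjusted p = 0.999) and -0.12 after hnRNP L depletion (adjusted p = 0.638). The intervals leave room for changes of up to 0.32 in either direction after SETD2 depletion.

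Among the kinases, CHEK1 differed most between the siRNAs and WEE1 overlapped with scramble in both depletions. WEE1 (chromosome 11, 9573670 to 9593457, plus strand), which phosphorylates CDK1 and CDK2 in the nucleus, was at 36.91 and 44.77 TPM in scramble, 39.94 and 44.48 after SETD2 siRNA and 33.91 and 37.04 after hnRNP L siRNA. The scramble libraries differed from each other by more than the group means did, and both hnRNP L siRNA libraries lay below both SETD2 siRNA libraries. The log2 fold change of WEE1 was 0.05 after SETD2 depletion (SE 0.123, interval -0.23 to 0.33, adjusted p = 0.887) and -0.20 after hnRNP L depletion (-0.48 to 0.08, adjusted p = 0.337). WEE2, its closest paralog, known from oocytes, was at no more than 0.16 TPM. PKMYT1 (chromosome 16, 2968024 to 2980479, minus strand), whose membrane-bound kinase acts on CDK1, was at 67.44 and 68.09 TPM in scramble, 82.75 and 74.98 after SETD2 siRNA and 64.04 and 65.68 after hnRNP L siRNA. The groups did not overlap in any comparison, with SETD2 siRNA highest and hnRNP L siRNA lowest. The log2 fold change was 0.22 after SETD2 depletion (-0.0034 to 0.43, adjusted p = 0.386), -0.06 after hnRNP L depletion (adjusted p = 0.711) and -0.28 between them (unadjusted p = 0.0185, adjusted p = 0.0983). PKMYT1 shares 4215 bases of its span, introns included, with PAQR4 on the other strand, which was at 39.09 to 44.32 TPM. It shares 357 bases with KREMEN2 (3.73 to 5.09 TPM), also on the other strand. How much of this lies in exons was not computed. Without knowledge of strand, reads that lie wholly in shared bases may not be told apart. Neither gene was called in any comparison.

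CHEK1 (chromosome 11, 125625163 to 125676255, plus strand) was at 66.96 and 68.61 TPM in scramble, 56.13 and 65.39 after SETD2 siRNA and 79.18 and 88 after hnRNP L siRNA. The 3 groups did not overlap, with SETD2 siRNA lowest and hnRNP L siRNA highest. Its log2 fold change was -0.16 after SETD2 depletion (SE 0.110, interval -0.41 to 0.09, adjusted p = 0.552) and 0.30 after hnRNP L depletion (0.05 to 0.55, unadjusted p = 0.0248, adjusted p = 0.116). The former was -0.051 without SETD2 siRNA library 2 and -0.27 without library 3. The latter was 0.39 with median-ratio scaling (adjusted p = 0.0272), still under the fold cut-off. Between the depletions it was 0.46 (0.21 to 0.71, adjusted p = 0.0340), the only adjusted p below 0.05 for these 8 genes in any of the 3 comparisons, and below the 1.5-fold cut-off. This adjusted p rose to between 0.0938 and 0.197 when either library of the SETD2 or hnRNP L siRNA was left out, and to 0.105 with no filter on TPM. CHEK1 shares 53 bases on the same strand with STT3A, which was at 136.08 to 188.33 TPM and was not called in any comparison.

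**Figure D2:**
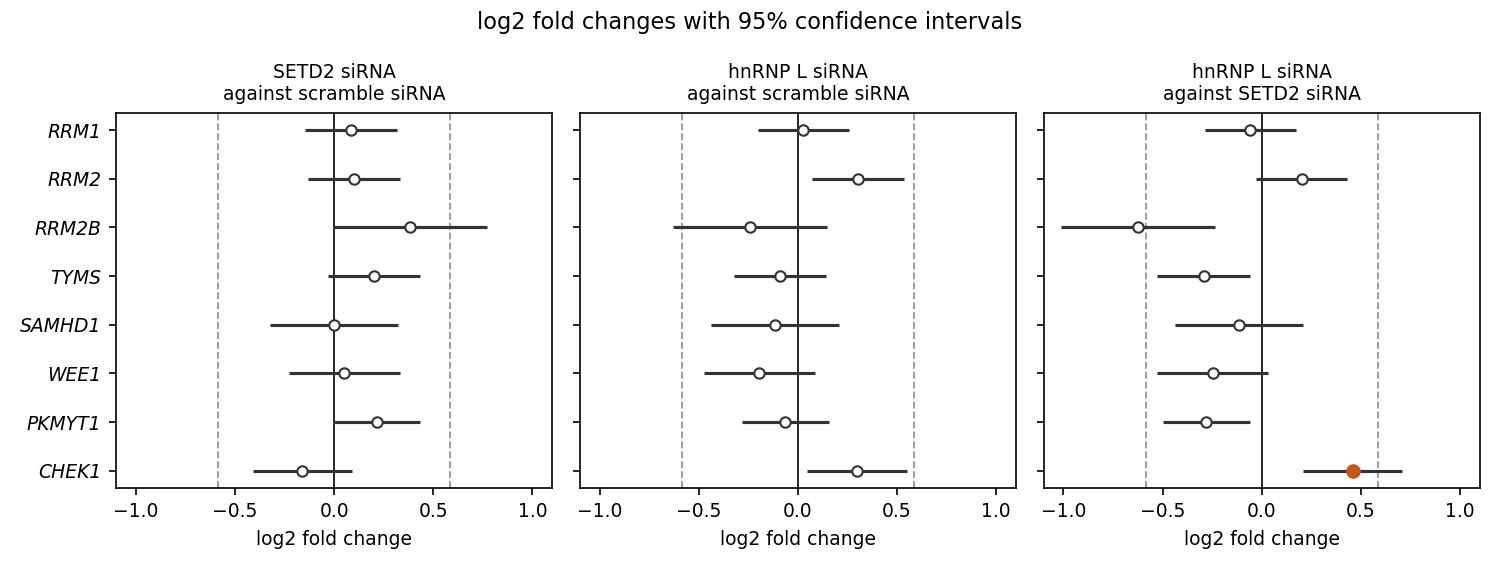
log2 fold change (horizontal axis, log2(TPM + 0.5) scale) of the 8 genes in the 3 comparisons, with the limma 95% confidence interval as a line; dashed lines mark a 1.5-fold change and the filled point an adjusted p below 0.05. Only CHEK1 between the depletions has a filled point, at 0.46, and only the intervals of RRM2B (in each comparison) and of CHEK1 (between the depletions) reach past a dashed line.

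Counted together, 0 of the 8 genes passed an adjusted p below 0.05 and a 1.5-fold change after SETD2 depletion. This call was passed by 0.104% of the tested genes, or 17, so a count of 0 was close to the background. Among protein-coding and lncRNA genes alone 25 were called higher and 35 lower. The study's own test, edgeR, reported more such genes after SETD2 depletion at the same cut-offs. By the unadjusted limma p below 0.05, 0 of the 8 were reached against 13.1% of tested genes. RRM2B and PKMYT1 narrowly missed it (limma unadjusted p = 0.0529 for each gene). RRM2B passed it with median-ratio scaling (limma unadjusted p = 0.0424) and quantile normalization (limma unadjusted p = 0.0322). It also passed among protein-coding and lncRNA genes alone (limma unadjusted p = 0.0349) and with only the libraries compared in the fit (limma unadjusted p = 0.0213). Under the alternatives as a whole between 0 and 2 of the genes passed. After hnRNP L depletion 0 of 8 were called, against 6.76% of tested genes, and 2 of 8 (RRM2 and CHEK1) had an unadjusted p below 0.05, against 28.4%. Between the depletions 0 of 8 were called, against 6.84%, 1 of 8 passed the adjusted p alone, against 10.8%, and 4 of 8 (RRM2B, TYMS, PKMYT1 and CHEK1) the unadjusted p, against 28.5%. The groups did not overlap for 5 of 8 genes after SETD2 depletion (43.5% of tested genes), for 3 of 8 after hnRNP L depletion (56.6%) and for 6 of 8 between the depletions (59.8%). The median log2 fold change of the 8 was 0.09 after SETD2 depletion against 0.01 over all tested genes, -0.08 against -0.08 after hnRNP L depletion, and -0.18 against -0.10 between them. With all libraries in the fit, the 95% interval stayed within a 1.5-fold change in both directions for 7 of 8 genes in each comparison with scramble. RRM2B was the exception. After hnRNP L depletion this depended on the libraries. The intervals of RRM2 and CHEK1 reached past a 1.5-fold rise without hnRNP L siRNA library 1. Those of SAMHD1 and WEE1 reached past a 1.5-fold fall without hnRNP L siRNA library 2. In bulk RNA, a different share of cells in S phase and a different amount of RNA per cell cannot be told apart.

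Ratios between the genes inside 1 library do not depend on how libraries are scaled to each other. Ratios with a gene in common, as several here have with RRM2, are not independent of each other. Both comparisons with scramble use the same scramble libraries, and with 2 libraries against 2 an exact permutation test cannot give a two-sided p below 0.33, so the ratios are given as values. The ratio of RRM2 to RRM1, small to large subunit, was 1.11 and 1.09 in scramble, 1.11 and 1.12 after SETD2 siRNA and 1.32 and 1.35 after hnRNP L siRNA. Its mean log2 ratio after hnRNP L depletion was thus 0.28 above scramble, with libraries of each siRNA close together, and 0.02 above scramble after SETD2 depletion. The ratio of RRM2B to RRM2, the alternative small subunits, was 0.0712 and 0.0647 in scramble, 0.0816 and 0.0859 after SETD2 siRNA and 0.0399 and 0.0529 after hnRNP L siRNA. It was higher than in scramble after one depletion and lower after the other, with a difference of -0.87 on the log2 scale between the depletions. TYMS to RRM2 was 1.08 and 1.09 in scramble, 1.21 and 1.12 after SETD2 siRNA and 0.827 and 0.824 after hnRNP L siRNA, so that TYMS exceeded RRM2 in 4 libraries and fell short of it in the other 2.

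Between the kinases, the ratio with CHEK1 differed between the siRNAs and that with PKMYT1 overlapped. WEE1 to CHEK1 was 0.551 and 0.653 in scramble, 0.712 and 0.680 after SETD2 siRNA and 0.428 and 0.421 after hnRNP L siRNA, a difference of -0.71 on the log2 scale between the depletions. WEE1 to PKMYT1, the 2 CDK-inhibitory kinases, overlapped in all comparisons (0.547 and 0.658 in scramble, 0.483 and 0.593 after SETD2 siRNA, 0.530 and 0.564 after hnRNP L siRNA). SAMHD1 to RRM2 was 0.192 and 0.180 in scramble, 0.163 and 0.184 after SETD2 siRNA and 0.128 and 0.150 after hnRNP L siRNA, lowest in the hnRNP L group. CHEK1 to RRM2, a ratio added after the values were seen, was 0.620 and 0.578 in scramble and 0.596 and 0.598 after hnRNP L siRNA, against 0.471 and 0.527 after SETD2 siRNA. RRM2 and CHEK1 were thus in nearly the same proportion in the scramble and hnRNP L siRNA libraries.

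**Figure D3:**
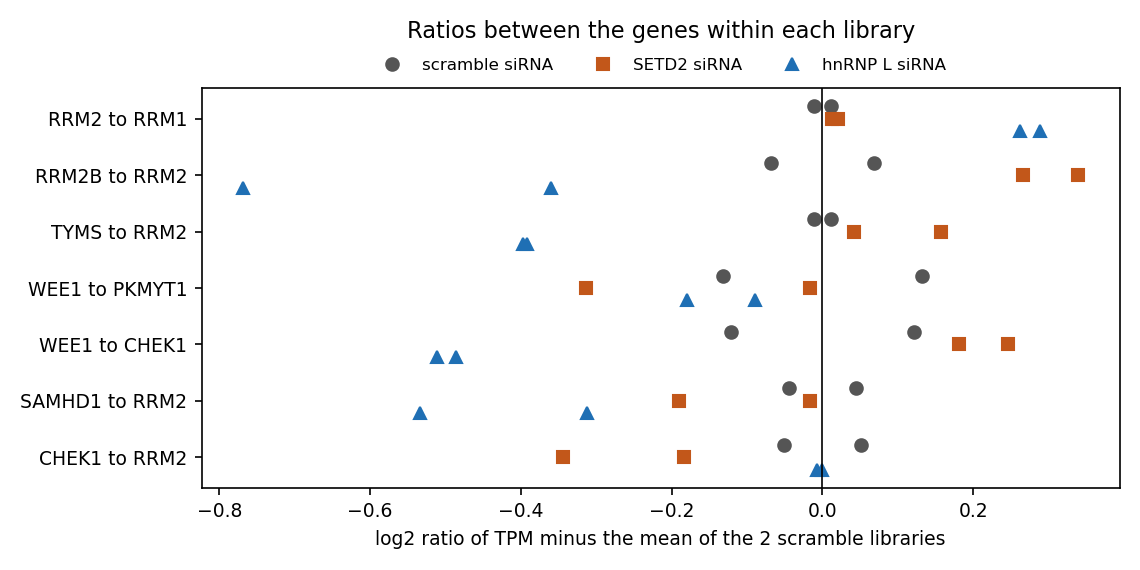
Difference of each log2 ratio of TPM from the mean of the 2 scramble libraries (horizontal axis, log2 units) for 7 pairs of genes, with 1 point per library. The hnRNP L siRNA libraries lie to the left for RRM2B to RRM2, TYMS to RRM2, WEE1 to CHEK1 and SAMHD1 to RRM2. They lie to the right for RRM2 to RRM1. The shifts of ratios that contain RRM2 are not independent of each other. The ratio of WEE1 to PKMYT1 overlaps between all siRNAs.

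Of the remaining enzymes of dNTP supply, 1 was called, and only with hnRNP L depletion. Of 28 listed genes of dNTP synthesis, salvage and turnover 27 were tested, and after SETD2 depletion 0 were called, with 6 of 27 at an unadjusted limma p below 0.05 (all higher), against 13.1% of all tested genes. Among these NUDT1, which removes oxidised nucleotides, was at 46.58 and 55.9 TPM in scramble and 76.05 and 64.84 after SETD2 siRNA (log2 fold change 0.46, adjusted p = 0.216). It was at 60.77 and 58.62 TPM after hnRNP L siRNA, also above scramble. ITPA, which removes deaminated nucleotides, gave 0.31 after SETD2 depletion (adjusted p = 0.262). After hnRNP L depletion 1 of 27 was called, against 6.76% of all tested genes. This was the mitochondrial deoxyribonucleotidase NT5M, which fell by 0.69 (adjusted p = 0.0237) from 4.37 and 5.16 TPM to 2.87 and 2.65 TPM. In each of the 2 comparisons with hnRNP L siRNA 7 of 27 had an unadjusted p below 0.05, against 28.4% and 28.5% of all tested genes. The list medians were 0.11, 0.10 and -0.11 in the 3 comparisons, against 0.01, -0.08 and -0.10 over all tested genes. Of the 18 tested genes of ribonucleotide synthesis 0 were called in any comparison. At an unadjusted p below 0.05 there were 1, 4 and 3 of the 18, against 13.1%, 28.4% and 28.5% of all tested genes. IMPDH2, rate-limiting for guanine nucleotides, had the smallest p, with 364.75 and 407.75 TPM in scramble and 502.06 and 515.29 after hnRNP L siRNA (0.40, adjusted p = 0.0371), under the fold cut-off.

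Around CHEK1, members of the ATR pathway differed in direction. Of 19 upstream genes, 0 were called after SETD2 depletion and 1 had an unadjusted limma p below 0.05, against 13.1% of all tested genes. With hnRNP L depletion 2 of 19 were called, against 6.76% of all tested genes. There 6 of 19 had that unadjusted p, against 28.4%. HUS1, a subunit of the clamp loaded at stalled forks, rose by 0.70 (adjusted p = 0.0113) from 8.7 and 9.77 TPM to 14.58 and 16.14 TPM. ETAA1, an activator of ATR, fell by 0.76 (adjusted p = 0.00955) from 13.47 and 13.91 TPM to 7.39 and 8.35 TPM. Between the depletions HUS1 (0.82), ETAA1 (-0.66) and TIPIN, which with its partner TIMELESS holds forks together (-0.65, adjusted p = 0.00782), were called. Over all tested genes 6.84% were called there. The list medians stayed between -0.04 and 0.00, against 0.01, -0.08 and -0.10 over all tested genes in the 3 comparisons. Of the 14 targets and opponents of WEE1, MYT1 and CHK1, such as the CDC25 phosphatases, and of the 17 tested ubiquitin ligases and other factors that act on RRM2, WEE1 or CHK1 protein, 0 were called in any comparison. Over all tested genes 0.104%, 6.76% and 6.84% were called, and 13.1%, 28.4% and 28.5% had an unadjusted p below 0.05. Of the 14 this p was reached by 0, 2 and 2, and of the 17 by 2, 4 and 3. CDC25C had the smallest p of the former between the depletions (-0.38, adjusted p = 0.0871), and FBXW7, a substrate receptor for cyclin E, of the latter (-0.52, adjusted p = 0.0560).

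Of 25 genes of E2F, RB and MuvB control, 0 were called after SETD2 depletion. At an unadjusted limma p below 0.05 there were 2 of 25, against 13.1% of all tested genes. After hnRNP L depletion 1 of 25 was called, TFDP1, the partner of the E2F factors, against 6.76% of all tested genes. TFDP1 rose by 0.65 (adjusted p = 0.0118) from 61.55 and 75.1 TPM to 108.12 and 105.49 TPM. E2F1 was at 27.1 and 28.87 TPM in scramble, 37.54 and 38.96 after SETD2 siRNA and 36.28 and 35.94 after hnRNP L siRNA (0.44 and 0.36, adjusted p = 0.178 and 0.0473, neither past the fold cut-off). Of 41 replication genes 0 were called after SETD2 depletion, with 9 of 41 at an unadjusted p below 0.05 (all higher), against 13.1% of all tested genes, and a median of 0.08 against 0.01. MCM2, a subunit of the replicative helicase, was at 119.5 and 118.47 TPM in scramble and 159.42 and 171.36 after SETD2 siRNA (0.47, adjusted p = 0.186). It was at 139.92 and 167.99 TPM after hnRNP L siRNA, also above scramble. After hnRNP L depletion 1 of 41 was called higher and 1 lower, while 6.76% of all tested genes were called. The licensing factor CDT1 rose by 0.61 (adjusted p = 0.0120) and the DNA ligase LIG1 fell by 0.72 (adjusted p = 0.00810). LIG1 went from 31.76 and 35.58 TPM to 21.39 and 19.19 TPM. Of 20 genes of G2 and M phase, 1 was called, HMMR, between the depletions (0.64, adjusted p = 0.0176), against 6.84% of all tested genes. Each of the calls in these dNTP, ATR, E2F, replication and G2 lists was lost in the comparison where it was made when either hnRNP L siRNA library was left out.

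The summed level of the replication list was 3161 and 3317 TPM in scramble, 3520 and 3638 after SETD2 siRNA and 3519 and 3725 after hnRNP L siRNA, higher in both depletions than in scramble. That of the G2 and M phase list overlapped between all siRNAs (1825 and 2100 TPM, 1789 and 1989 TPM, and 1804 and 2003 TPM). These sums stand beside the values of RRM2 and TYMS, S-phase genes themselves, and their part in those values was not tested. Of 13 tested interferon-induced genes 0 were called in either comparison with scramble. At an unadjusted limma p below 0.05 there were 0 and 4 of the 13, against 13.1% and 28.4% of all tested genes. Between the depletions 1 of 13 was called, IRF9 (-0.74, adjusted p = 0.0198), against 6.84% of all tested genes. This call was lost when any library of these 2 groups was left out.

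As a description over the 6 libraries, which share the 3 siRNAs and their scaling, the genes most like RRM2 by Pearson's r of log2(TPM + 0.5) were DVL1 (0.998) and XRCC3 (0.996). Those most like WEE1 were ORC4 (0.995) and CAV2 (0.994), those most like CHEK1 THUMPD3-AS1 (0.995) and RTKN2 (0.994), and those most like SAMHD1 RAB2B (0.997) and LCA5 (0.992). An r above 0.9 was reached with RRM2 by 2.29% of the tested genes (373 genes), with WEE1 by 3.25% (530), with CHEK1 by 2.54% (414) and with SAMHD1 by 1.27% (207).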

How the data were processed

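RNA-seq of 293T cells was analysed in 6 libraries, 2 per siRNA, grouped by the sample labels, and 10 ChIP-seq samples were not analysed here. Per the study's methods and processing notes, the authors demultiplexed reads with bcl2fastq 2.18, aligned them to hg38 with Ensembl release 96 gene models with STAR 2.6.1c, and made the deposited TPM per gene with RSEM 1.3.0. TPM are scaled to a fixed sum in each library and keep no counts, so depth and counting error cannot be taken from them.

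Values were analysed as log2(TPM + 0.5), a scale on which low genes change less than their TPM do, and 16300 genes of all biotypes with a mean TPM of at least 0.5 were tested with limma 3.58.1 in R 4.3.3. One fit held all 6 libraries, with 1 mean per siRNA, and variances were moderated along a trend with the mean level (5.74 prior and 3 residual degrees of freedom). The adjusted p was computed by Benjamini and Hochberg's method across every gene tested, and a call needed both a change beyond 1.5-fold and an adjusted p under 0.05. The fit was tested on simulated data with noise independent between libraries, which does not cover shifts shared by a whole library. Gene coordinates come from GENCODE release 44 on hg38, promoters from RefSeq. Python 3.11.15, pandas 2.3.3, NumPy 2.4.6 and Matplotlib 3.10.9 were used.

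The genes, lists and tests were chosen with earlier results of these data known. Named are the 8 genes, the siRNA targets, overlapping genes, pseudogenes and the paralog WEE2, up to 3 called genes per list and comparison (otherwise the 2 with the smallest p, of which some are given), and the 2 genes most like RRM2, WEE1, CHEK1 and SAMHD1. One gene list and 1 marker gene are not reported here. Alternatives were pseudocounts of 1 and 0.1, quantile normalization, median-ratio scaling, no filter, a fit of protein-coding and lncRNA genes, a fit with only the libraries compared, a replicate block, no fold cut-off, an unadjusted p, and leaving out each library.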

Additional observations from a re-analysis of the deposited data

Results flagged for a closer look

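CHEK1 differed between the depletions by 0.46 on the log2 scale (hnRNP L siRNA minus SETD2 siRNA), and this difference itself was tested, with a limma adjusted p of 0.0340. The range of this adjusted p over the 13 alternatives was 0.00991 to 0.197, and all 4 hnRNP L and SETD2 siRNA libraries lay on their side of the scramble values. No group has more than 2 libraries, so no search for outlying libraries was made.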

How the results depend on the processing

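After SETD2 depletion, 0 of the 8 genes were called under every alternative run. After hnRNP L depletion 2 were reached by the unadjusted p. Between the depletions 1 was called with a pseudocount of 0.1 and with protein-coding and lncRNA genes only (RRM2B, log2 differences of -0.66 and -0.62), 1 by the adjusted p with no fold cut-off (CHEK1) and 4 by the unadjusted p. The fold changes that changed sign were under 0.13 in size, except that of RRM2B after hnRNP L depletion (-0.24), which did so without hnRNP L siRNA library 1. With a library left out, the log2 fold change ranged from -0.12 to 0.11 for SAMHD1 and from -0.086 to 0.19 for WEE1 after SETD2 depletion, from -0.051 to 0.11 for RRM1, from -0.50 to 0.016 for RRM2B and from -0.29 to 0.063 for SAMHD1 after hnRNP L depletion, and from -0.12 to 0.0027 for RRM1 and from -0.29 to 0.065 for SAMHD1 between the depletions. With median-ratio scaling it was 0.0039 for TYMS and 0.031 for PKMYT1 after hnRNP L depletion and 0.054 for RRM1 between the depletions, where quantile normalization gave 0.017. Median-ratio scaling moved the median of all genes from -0.08 to 0.00062 after hnRNP L depletion, and turned 286 calls higher and 816 lower over all genes into 420 and 528. With a replicate block over the 4 scramble and hnRNP L siRNA libraries, 0 of the 8 genes were called and over all genes 210 were higher and 505 lower. Numbers 1 and 2 did not deviate together (r = -0.13 across genes), and a block with crossed numbers, added after seeing the data, called 413 higher and 993 lower. No paired analysis was possible for SETD2 depletion because the SETD2 siRNA libraries share only number 2 with the others.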
